A study of Rattus norvegicus with 11 samples.

Results

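The genes described here encode the voltage-gated potassium channels that repolarize the heart muscle cell after each beat. They are 9 of the 17257 rows of the authors' table of gene expression in ventricular myocytes, found by their symbols, and all 9 had reads. Kcnd2, Kcnd3, Kcnip2 and Kcna4 were taken as the transient outward genes, and Kcna2, Kcna5, Kcna7, Kcnh2 and Kcnq1 as the delayed rectifier genes. The myocytes came from wild-type Sprague Dawley rats of 3 to 4 months, 6 males and 5 females, which the submitters describe as biological replicates, with 1 library each. No animal was treated. The cells were freed from the heart by Langendorff perfusion, held in dishes for 45 minutes and frozen, and the design asked what differs with sex. Whole preparations were sequenced, so fewer cells of a type and less RNA per cell cannot be told apart.

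A channel opened by depolarization lets potassium leave the myocyte and ends the action potential. The transient outward current switches on and off within the first phase and is large in the rat ventricle, where pore subunits of the Kv4 family (Kcnd2 and Kcnd3) carry its fast part with the calcium-binding accessory protein of Kcnip2, and Kcna4 carries a slow part. Delayed rectifiers open later and remain active for longer: Kcnh2 encodes the pore of the rapid cardiac current, Kcnq1 that of the slow current, and Kcna5 and Kcna2 belong to the Shaker-like family together with Kcna7.

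Among the 9 genes, Kcnh2 rose in females and the others did not pass the test. The authors' deposited table called 1 of 9 members higher in females and 0 lower, at an adjusted p under 0.05. Over all 13346 genes with a mean above 0, 14.5% were called in either direction, 6.71% higher and 7.76% lower in females. Of the 8 members with a mean of at least 50, 1 was called, beside 20.5% of all 9116 genes at that level, 9.69% being higher and 10.8% lower in females. The single call, a higher one, is too few to say anything of the members as a set against these shares. The median log2 fold change (female over male) was -0.12 over the 9 members and -0.01 over all genes in the authors' deposited table.

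**Figure D1:**
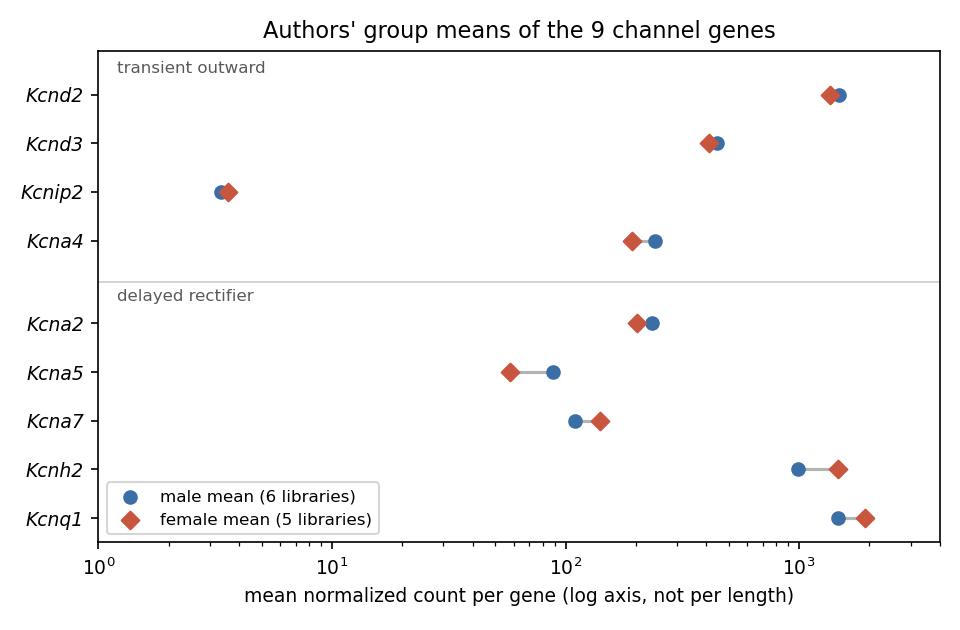
Mean normalized count of each channel gene in males (circles, 6 libraries) and females (diamonds, 5 libraries), on a log axis, from the authors' deposited table. The values are reads per gene and are not divided by gene length; Kcnh2 and Kcnq1 lie to the right in females, and Kcnip2 has a mean of 3.36 in males and 3.60 in females.

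The Kv4 pore genes had close means in the sexes. Kcnd2 had a mean normalized count of 1475 in males and 1361 in females in the authors' deposited table. The log2 change from male to female was -0.12 there (adjusted p = 0.820). For Kcnd3 the authors' deposited table listed 446 in males, 410 in females and a log2 change of -0.12 (adjusted p = 0.781). The ratio of the Kcnd3 to the Kcnd2 mean was 0.302 in males and 0.301 in females, so the pair kept nearly the same proportion in both sexes. An approximate standard error was worked back from each deposited p-value on a normal scale. It was 0.21 for Kcnd2, which gave a 95% interval of -0.52 to 0.29 for the log2 fold change, and 0.19 for Kcnd3, which gave -0.49 to 0.25. Both signs depended on the scaling: with the group means rescaled to equal totals over all genes, the values became 0.03 and 0.03. RefSeq places 6 other genes over the span of Kcnd2 in the assembly GRCr8, among them Kcnd2l1, and whether reads were shared with that copy is not known.

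Kcna4, the pore gene of the slow transient current, averaged 241 in the male and 193 in the female group of the authors' deposited table. The authors' deposited table gave a log2 value of -0.32 (adjusted p = 0.403), and the p implies a standard error of about 0.23. Its interval ran from -0.77 to 0.13. The difference was thus within the error that the deposited p-value implies.

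Kcnip2, whose protein assembles with the Kv4 pore and raises its surface expression, was almost without reads. The means were 3.36 in males and 3.60 in females (adjusted p = 1) in the authors' deposited table. For this gene, as for Kcna5 and Kcna7, whole reads per library could be worked back from the digits of the means. Libraries are known by sex and size factor only, and carry the letters a onwards within each sex from the largest size factor down. Kcnip2 had 7, 0, 0, 9, 4 and 0 reads in male libraries a to f. It had 2, 1, 1, 14 and 0 reads in female libraries a to e. Reads were present in 3 of 6 male and 4 of 5 female libraries, and the sexes overlapped from 0 upwards. The normalized read count was 3.36 ± 3.95 (SD, n = 6) for males and 3.60 ± 6.07 (SD, n = 5) for females, and the two-sided exact permutation test on log2 of the count plus 1 gave p = 0.991. Which gene annotation was used for counting is not stated in the sources at hand. The table also listed at 0 the gene Cttn, which encodes the cytoskeletal protein cortactin of most cells, and the collagen gene Col1a2. The Kcnip2 values are therefore values of that row of the table.

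**Figure D2:**
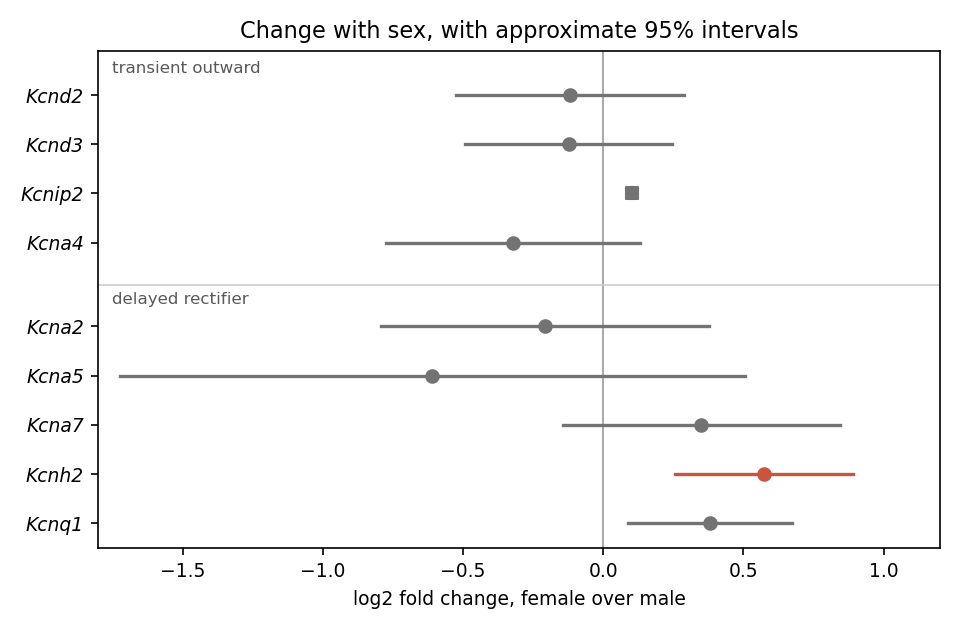
Log2 fold change of each channel gene, female over male, from the authors' deposited table, with approximate 95% intervals worked back from the deposited p-values (lines). The called gene Kcnh2 is in red, with an interval from 0.26 to 0.89; Kcnip2 (square) has no interval because its p is 1.

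Kcnh2 was the member that changed. It encodes the pore of the rapid delayed rectifier, the channel blocked by many drugs that lengthen the QT interval. The authors' deposited table listed a male mean of 986 and a female mean of 1467, a fold of 1.49. The authors' deposited table put the log2 change at 0.57 (adjusted p = 0.0078), and the p implies a standard error of about 0.16. This change lay above that of 85.4% of all measured genes. The log2 fold change lay between 0.51 and 0.72 under the other scalings tried. Reads per library could not be worked back at means of this size, so the overlap of single animals is not shown.

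Kcnq1, the pore gene of the slow delayed rectifier, stood at a male mean of 1472 and a female mean of 1916 in the authors' deposited table. Its log2 fold change of 0.38, with an approximate standard error of 0.15, had p = 0.0106 before and 0.0651 after adjustment in the authors' deposited table. When the deposited p-values were adjusted over only the 9116 genes whose mean reached 50, the Benjamini-Hochberg value was 0.0462, which passes the threshold. Over the 10519 genes whose mean reached 10, the Benjamini-Hochberg value was 0.0517, which does not pass. The call for Kcnq1 therefore depended on which genes were adjusted over. In the assembly GRCr8 a long noncoding gene, LOC120099963, lies over Kcnq1, and the sources at hand do not state whether reads were counted by strand.

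Kcna2, a Shaker-family pore gene, averaged 234 in the male and 203 in the female group of the authors' deposited table. The authors' deposited table put the log2 change at -0.21 (adjusted p = 0.759), and the p implies a standard error of about 0.30. Its interval, from -0.79 to 0.38, takes in changes in either direction.

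Kcna5 encodes the pore of the ultrarapid delayed rectifier, and it varied widely between libraries of the same sex. Normalized read counts in male libraries a to f were 173.0, 92.3, 53.3, 34.1, 50 and 128.2. In female libraries a to e they were 30.0, 94.1, 36.4, 117.2 and 12.3. Male library a and female library d stood highest in their sex, female library e lowest, and the sexes overlapped over most of their range. The mean was 88.5 ± 53.7 (SD, n = 6) for males and 58.0 ± 45.1 (SD, n = 5) for females (two-sided exact permutation test, p = 0.255). The spread, as a coefficient of variation, was 60.7% in males and 77.8% in females, where counting error alone gives 10.8% and 12.9%. Among 1134 recovered genes with means from 0.5 to 2 times that of Kcna5, 94.9% varied less in males and 97.6% varied less in females. With limma over 2230 recovered genes, the log2 difference was -0.79 with a standard error of 0.49 (adjusted p = 0.451). Leaving out female library e brought the difference to -0.35, and leaving out female library d to -1.14. The authors' deposited table put the log2 change at -0.61 (adjusted p = 0.563). The digits of the male means allowed 2 sets of whole reads for Kcna5 and 3 for Kcna7, and the set used is the one that returned every deposited digit; the values per library hold as far as that choice does.

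**Figure D3:**
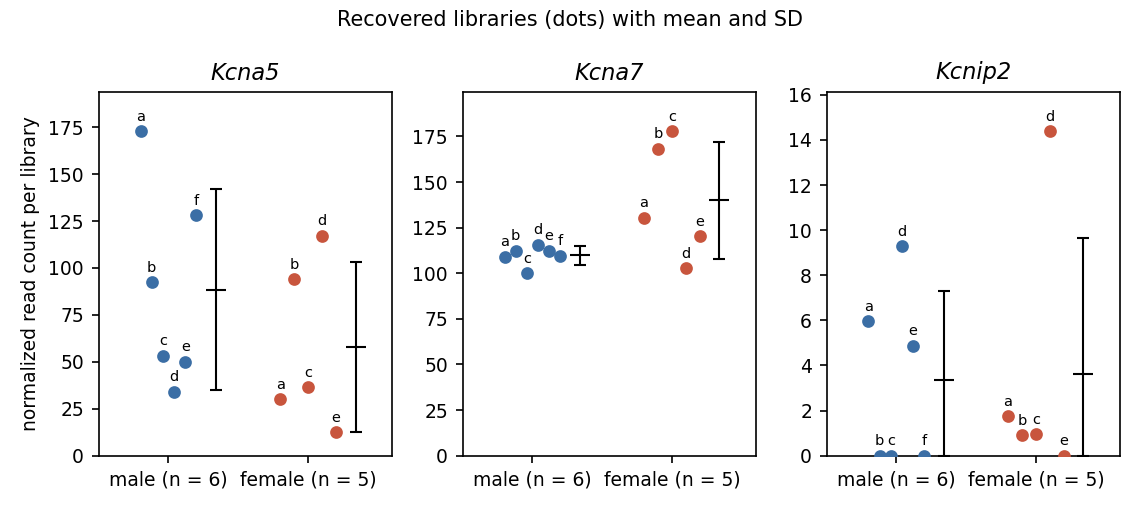
Normalized read count of Kcna5, Kcna7 and Kcnip2 in each library (dots with library letters, 6 male and 5 female), with the mean and SD in black, the SD drawn no lower than 0. Kcna5 runs from 12.3 to 173.0 and Kcnip2 from 0 to 14.4, while the male libraries of Kcna7 lie between 99.97 and 115.6.

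Kcna7, another Shaker-family pore gene known from muscle, was even among males and spread among females. In male libraries a to f its normalized read counts were 109.1, 112.2, 99.97, 115.6, 112.3 and 109.7. In female libraries a to e they were 130.4, 168.4, 178.0, 102.8 and 120.4. Of the females, 4 of 5 libraries lay above every male library, and library d lay among the males. The mean was 109.8 ± 5.36 (SD, n = 6) for males and 140.0 ± 32.0 (SD, n = 5) for females (two-sided exact permutation test, p = 0.0346). This p is not adjusted for the number of genes, and the smallest that 6 against 5 libraries can give is 0.00216. By limma over the 2230 recovered genes, of which 0.269% were called, the log2 difference was 0.32 with a standard error of 0.18 (adjusted p = 0.397). The authors' deposited table put it at 0.35 (adjusted p = 0.404), so the difference did not pass the test over all genes. The male coefficient of variation of 4.88% was below the 9.70% that counting error gives on average, and 0% of 603 recovered genes with means from 0.5 to 2 times that of Kcna7 varied less.

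Summed by current, the transient outward genes held a smaller share of the members' reads in females than in males; reads per library were lacking for most members, so this was not tested across libraries. The summed means of the 4 transient outward genes were 2166 in males and 1967 in females. Those of the 5 delayed rectifier genes were 2890 in males and 3784 in females. The ratio of transient outward to delayed rectifier reads was 0.749 in males and 0.520 in females, whatever scaling is used between the sexes. As a share of the reads of all 9 genes, the transient outward genes held 42.8% in males, with a 95% Wilson interval of 42.3% to 43.4%. In females they held 34.2%, with an interval of 33.7% to 34.7%. These intervals cover counting error only, over about 29975 and 30074 reads, and the spread between animals is not in them. No gene lengths were at hand, so the shares are of reads and say nothing of the number of channel transcripts. Against Kcnd2, the ratio of Kcnh2 was 0.668 in males and 1.08 in females, and that of Kcnq1 was 0.998 and 1.41. Without Kcnh2 the share was 53.2% in males and 45.9% in females. Kcnq1, also with a higher mean in females, stayed in that sum, and the share without both genes was not worked out. Of the sum of all 9 genes, Kcnh2 and Kcnq1 held 19.5% and 29.1% in males and 25.5% and 33.3% in females. Kcna2, Kcna5 and Kcna7 held 4.63%, 1.75% and 2.17% of it in males and 3.53%, 1.01% and 2.43% in females. The higher delayed rectifier sum in females thus lay in Kcnh2 and Kcnq1. The median log2 fold change was -0.12 for the transient outward genes and 0.35 for the delayed rectifiers, but 2 of 5 delayed rectifier genes, Kcna2 and Kcna5, had values below 0.

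**Figure D4:**
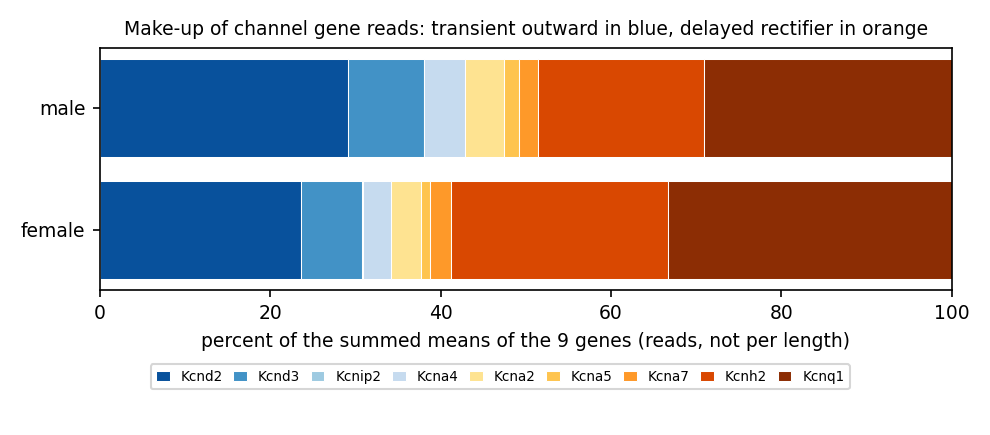
Share of each of the 9 genes in their summed means, in percent, in males and females; transient outward genes are in blue and delayed rectifier genes in yellow to brown. Kcnh2 holds 19.5% of the male and 25.5% of the female sum, and Kcnd2 holds 29.2% and 23.7%.

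Of 46 other voltage-gated potassium channel genes listed, 44 were in the table, 12 of them listed at 0, and 32 had reads. The authors' deposited table called 1 of these 32 higher in females and 0 lower, beside 6.71% and 7.76% of all genes. Only 8 of the 32 had a mean of at least 10, and 3 a mean of at least 50, so most had few reads to be called on. The called gene was Kcng2, a silent subunit that forms no channel alone and alters the channels it joins. Its means were 1672 and 2553, and the log2 change was 0.61 (adjusted p = 0.0032) in the authors' deposited table. The pore gene Kcnq5 was low in both sexes in the authors' deposited table, with means of 15.04 and 17.77 (adjusted p = 0.918). The silent subunit gene Kcns3 averaged 58.9 ± 12.3 normalized reads in males (SD, n = 6) and 78.2 ± 29.5 in females (SD, n = 5) (two-sided exact permutation test, p = 0.193). Kcnv2, also a silent subunit, had 25.0 ± 9.74 (SD, n = 6) and 18.6 ± 10.6 (SD, n = 5) (two-sided exact permutation test, p = 0.264).

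The accessory subunit genes that accompany Kcnq1 and Kcnd channels had few reads. Kcne1, the partner of Kcnq1 in the slow delayed rectifier, had normalized read counts of 15.3, 6.3, 0, 10.3, 0 and 1.2 in male libraries a to f. In female libraries a to e they were 13.2, 29.9, 0, 43.2 and 2.1, with libraries b and d highest. The mean was 5.54 ± 6.32 (SD, n = 6) for males and 17.7 ± 18.5 (SD, n = 5) for females (two-sided exact permutation test, p = 0.327). Kcne4, whose protein dampens Kcnq1 current, had 18.5 ± 6.66 (SD, n = 6) for males and 10.5 ± 5.29 (SD, n = 5) for females; the unadjusted two-sided exact permutation p was 0.0433. The authors' deposited table listed Kcne4 at an adjusted p of 0.531. Kcnip3, a relative of Kcnip2, had 8.76 ± 7.90 (SD, n = 6) and 10.9 ± 13.6 (SD, n = 5) (two-sided exact permutation test, p = 0.946).

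Partner and regulator genes of these channels were counted from lists chosen with results of these data known. Of 9 measured scaffold and trafficking partners, 0 were called higher and 2 lower in females in the authors' deposited table, beside the same 6.71% and 7.76% of all genes. All 9 had a mean of at least 50, and among all genes at that level the shares were 9.69% and 10.8%. The called partner Dlg1, a membrane scaffold that binds Shaker-family channels, had means of 2015 and 1334. Its log2 change was -0.59 (adjusted p = 0.0476) in the authors' deposited table. Of 13 measured transcription factor genes, 4 were called higher and 0 lower, beside 6.71% of all genes called higher, and 9.69% among genes with a mean of 50 or more. These were Irx3, Gata4, Nkx2-5 and Tbx5, factors of heart development and conduction, which the authors' deposited table put at log2 changes of 0.85, 0.57, 0.92 and 0.64 with adjusted p-values of 0.0290, 0.0023, 0.0022 and 0.00094. Irx5, which is known for its part in the gradient of Kcnd2 across the ventricular wall, had a male mean of 361 and a female mean of 445 (adjusted p = 0.498) in the authors' deposited table; Irx5 lay outside the rule for named genes and was picked with its value known.

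**Figure D5:**
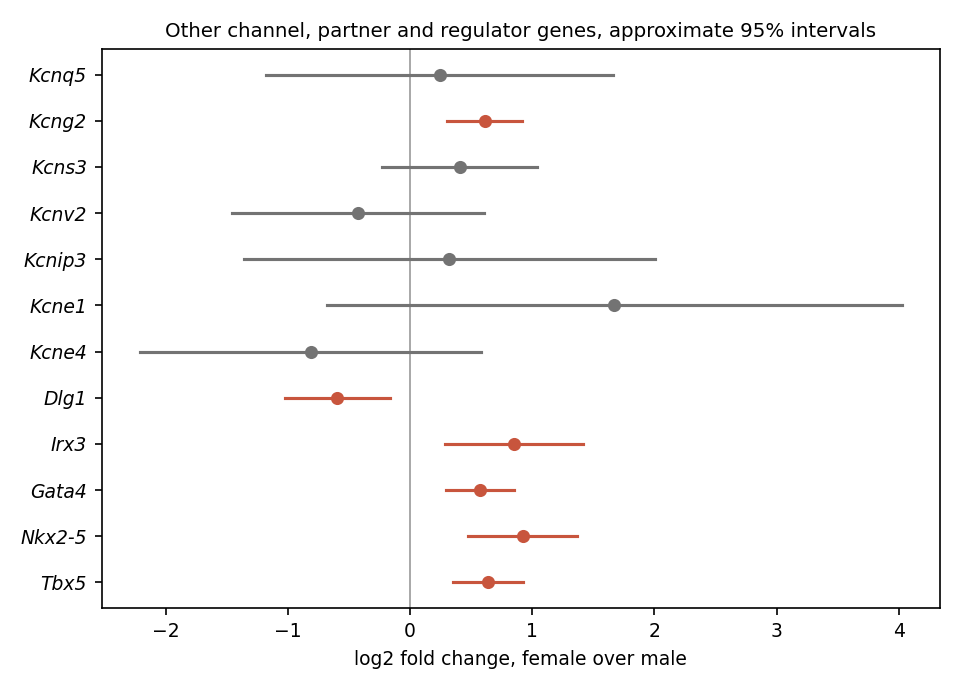
Log2 fold change, female over male, of the other channel, partner and regulator genes named, from the authors' deposited table, with approximate 95% intervals worked back from the deposited p-values; called genes are in red. Kcng2 and the transcription factor genes Irx3, Gata4, Nkx2-5 and Tbx5 lie above 0, and Dlg1 below.

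By pattern over the 11 libraries, on log2 of the normalized count plus 1 and among 2229 other recovered genes with a mean of at least 10, the genes most like Kcna5 were Fam83b, Spon1 and Pcdh20. Their Pearson correlations with Kcna5 were 0.895, 0.890 and 0.884. Those most like Kcna7 were Smo, Thumpd2 and Slc30a3, with 0.937, 0.881 and 0.844. These are the highest of many values over 11 libraries that share their size factors, and are given as a description.

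The preparations carried strong myocyte markers and some of other cells. The summed means of 8 myocyte markers were 3218695 in males and 3855634 in females, a ratio of 1.198, and 2 of 8, Myh6 and Ryr2, were called higher in females in the authors' deposited table. Of the 8 myocyte markers, 6 had a log2 change above 0 and 2 below, and Myh6 alone stood at 831771 in males and 1330868 in females. The 8 endothelial markers summed to 19643 and 19602, a ratio of 0.998, with 2 called higher and 1 lower. Myocyte and endothelial markers all had a mean of at least 50, where 9.69% of all genes were called higher and 10.8% lower. Of the 7 fibroblast markers 6 had reads, with sums of 7513 and 5179, and 1, Col1a1, was called lower. Smooth muscle and pericyte markers summed to 5381 and 5560, and leukocyte markers to 871 and 707, with none called in either list. The 5 atrial markers had a female to male ratio of sums of 2.04, and none was called. This ratio rests on Myl7, which stood at 287 in males and 2548 in females (adjusted p = 0.427) in the authors' deposited table. Nppa, the other one with a large mean, went the other way, with 1660 in males and 1510 in females. The neuron and Schwann cell markers summed to 34.03 and 34.43, with Th at 0 in both sexes. Whether these other cells or the myocyte content have a part in the channel values was not tested.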

How the data were processed

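RNA was sequenced in 6 male and 5 female libraries. Per the labels' protocols, RNA of integrity number 9 or more was depleted of ribosomal RNA and 650 ng entered stranded total RNA libraries. The build was rn6, and HTSeq 0.6.1, TopHat2 2.0.12, Trimmomatic 0.32, DESeq and FastQC were used, per the submitters' processing notes; their settings and the annotation are not given in the sources used here. Per the file headers, the authors deposited mean normalized counts (a signal, counts over size factors) for all libraries and for groups A and B, the fold (a linear ratio B over A), its log2 value, the p-value and its adjusted p-value. The overall mean fitted 6 libraries in A and 5 in B for 13346 of 13346 genes and the reverse for 0, so A is male and B female. The authors' deposited p-values were used as they stand, with a threshold of 0.05.

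Reads per library were worked back from the digits of the means for genes with a male mean up to 115 and a female mean up to 145. All combinations of whole reads were enumerated, and 1 solution in both sexes was found for 5018 genes. For another 39 genes with several solutions, Kcna5 (2 solutions) and Kcna7 (3) among them, the only one that returned all 5 deposited values to the last digit was used; of 3562 genes with 1 solution, 84.2% did so. The solutions set aside had from 6 to 239 reads per male library for Kcna5 and from 1 to 291 for Kcna7. They missed the deposited values by at most 2 units of the last digit for Kcna5 and 1 unit for Kcna7. In the females Kcna2 and Kcna4 had 2 solutions each and were not used. On simulated data 3359 of 3388 genes were returned, and 100% of those returned were true. Of the 157 with a male mean over 60, the range of Kcna5 and Kcna7, 128 were returned. The simulated means were written with the same arithmetic that the last-digit match uses. The simulation therefore cannot test the choice between several solutions made for Kcna5 and Kcna7. Size factors ran from 0.811 to 1.17 in males and from 0.972 to 1.14 in females, and the recovered genes held 90681 to 129410 reads per library.

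limma 3.58.1 (R 4.3.3) was run with a mean trend on log2 of the normalized count plus 1, for 2230 recovered genes with a mean of at least 10. On data simulated for those genes it called 14.5% of genes changed 2-fold and 81% of those changed 4-fold. Exact permutation tests enumerated all 462 arrangements of 6 and 5 libraries. Named genes were the 9 members, called genes of the partner, regulator and channel lists, the 3 genes of highest mean in each channel list, and for Kcna5 and Kcna7 the 3 recovered genes of highest correlation. Some genes that this rule takes are not reported here. Members and lists were chosen with earlier results of these data known. The RefSeq tables are of GRCr8, so no coordinates are given.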

Additional observations from a re-analysis of the deposited data

Results flagged for a closer look

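Kcnip2 in the female libraries: library d had a normalized read count of 14.4 and the next highest 1.76, a gap of 0.878 of the whole range, where the 95% critical value of Dixon's test for 5 values is 0.71. In reads, library d held 14 of the 18 female reads of this gene. Of 20 groups of libraries looked at, for 10 genes in 2 sexes, this was 1 flagged. Chance flags about 1 in 20 where values follow a normal distribution. Reads as few as these do not, so the rate for them is not known.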

How the results depend on the processing

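Kcnh2 was the member called at an adjusted p under 0.01 too. With a threshold of 0.1, 2 members were called higher in females, Kcnh2 and Kcnq1. The same 2 were called with the adjustment over genes with a mean of at least 50. With the adjustment over genes with a mean of at least 10, 1 member was called higher. Of the members, 0 were called lower under any threshold or filter tried. The count of other channel genes called was 1 higher and 0 lower at thresholds of 0.01 and 0.1 and with the adjustment over genes with a mean of at least 50. The shares of all genes called under these other thresholds and adjustments were not worked out, so these counts have no background beside them. The transient outward share was 39.97% in males and 31.9% in females with Kcna4 in neither group. Added after the data were seen, it was 53.2% and 45.9% without Kcnh2, and 60.4% and 51.3% without Kcnq1. It was lower in females in each case, but every case kept Kcnh2, Kcnq1 or both. The size of the share moves because genes leave the sum. Kcnh2 and Kcnq1, which both had higher means in females, were left out 1 at a time and not together. The lower share in females is thus not shown apart from these 2 genes. Leaving out 1 library at a time, the limma log2 difference ran from -1.14 to -0.35 for Kcna5, with adjusted p from 0.287 to 0.749, and from 0.23 to 0.42 for Kcna7, with adjusted p from 0.287 to 0.607. Equal totals over all genes shifted log2 values by 0.15 and put 6 of 9 members above 0 in place of 4. No paired analysis was possible because the table holds group means, and the recovered libraries carry no replicate numbers. Sums per gene length were not run, since no transcript lengths were at hand. The few reads of Kcnip2, 20 in males and 18 in females, limit what its values can show.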
